A study of Mus musculus with 6 samples.

Results

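Large ribosomal subunit assembly and nucleolar genes were followed in RNA-seq of I1DN cells, a murine acute myeloid leukemia (AML), with and without AG636, an inhibitor of the pyrimidine synthesis enzyme DHODH. A hand-written list of 47 genes was used, which encode pre-60S assembly factors, the proteins of the H/ACA small nucleolar ribonucleoprotein (snoRNP) and abundant nucleolar proteins. The list was chosen by gene function, with earlier results of these data known. Its 47 genes are among the 54838 genes in the deposited count table. All 47 were found under a single identifier each, and all 47 passed the filter on low counts that left 11092 genes to test.

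I1DN cells came from fetal liver hematopoietic stem and progenitor cells that the authors transduced with IDH1R132H, DNMT3AR882H and NrasG12D, on a C57BL/6 background. All samples carry these alleles, and all were grown in sublethally irradiated Ptprca recipients. The study's methods describe transplanting thawed spleen or bone marrow cells from a moribund mouse. Whether all recipients shared the same donor was not given in the sources used here. The 3 AG636 samples came from recipients gavaged b.i.d. with AG636 at 100 mg/kg body weight, and the 3 Vehicle samples from recipients given vehicle. Sorted leukemic cells from bone marrow and spleen were sequenced, and the study's text names the sorted population cKit+CD11b- in one place and cKit-high CD11b-low in another. Each sample came from a different mouse. The age and sex of the mice and the share of each organ per sample were not given in the sources used here, and the length of treatment is given differently in different places of the study. The mutant alleles were introduced by transduction in a single model, and normal hematopoietic cells are not part of the comparison.

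In eukaryotes the large subunit starts in the nucleolus, where RNA polymerase I transcribes a long precursor rRNA and assembly factors fold and cleave it together with ribosomal proteins. The particle then moves through nucleoplasm and cytoplasm while GTPases and AAA ATPases strip the factors off in turn, and H/ACA snoRNPs guide pseudouridylation of the rRNA. Growing cells spend much of their energy on this pathway, and its genes are well-known targets of MYC, which binds the E-box CACGTG.

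The samples held between 4634963 and 7906589 counts assigned to genes. CPM are counts scaled to a common library size after TMM. For the floors, 3 counts were set against each sample's total without TMM, which gave between 0.379 and 0.647 CPM. These floors cover counting error only. The sorted cells carried the immature markers *Kit*, *Cd34* and *Myb*, with *Myb* between 396.9 and 552 CPM in every sample and none of these 3 called different, while *Flt3* was too low to test. Neutrophil markers were higher with AG636 for 8 of the 10 on the list, where 10.3% of all genes tested were called higher. Their summed levels, mostly *S100a8* and *S100a9*, were 1081 to 2460 CPM in Vehicle and 3002 to 6072 CPM in AG636 samples. Of the 6 monocyte markers tested *Cd68* and *Ly6c2* were higher, with sums over the list of 80.4 to 123 CPM against 166 to 250.4 CPM. Among the erythroid markers *Klf1* was lower, while the summed levels of the list overlapped, at 1641 to 4663 CPM in Vehicle and 1941 to 3220 CPM in AG636 samples. *Itga2b* and *Gp9* of the 4 megakaryocyte markers were higher, with overlapping sums of 774 to 1204 and 1045 to 1698 CPM. *Ppbp* of the same list was not called, at 38.7 to 69.7 CPM in Vehicle and 23.6 to 37.6 CPM in AG636 samples, which did not overlap (log2 fold change -0.74, edgeR adjusted p = 0.0534). Of the B cell and the T and NK cell markers 2 of 7 and 2 of 8 were abundant enough to test and none of those passed. Their sums were 14.6 to 27.9 CPM in Vehicle and 29.5 to 44.3 CPM in AG636 for B cell markers, and 199 to 332.5 and 259 to 499 CPM for T and NK cell markers. Nearly all of the T and NK cell sum was *Nkg7* alone (191 to 326.5 and 253 to 492.5 CPM), while *Pax5* and *Cd3e* were at or near 0. The part of these other cell types in the results was not tested, and in bulk RNA fewer cells of a type and less RNA per cell cannot be told apart.

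The promoters of a few members are shown here because the members moved in one direction and because the E-box is the element for which this gene class is known. Promoter windows, from 250 bases before to 50 bases after a start site, were taken from RefSeq (GRCm38.p6) and were found for 38 of the 47 members. The windows of *Mdn1*, *Nop2* and *Nle1* belong to the 3 members with an E-box that had the lowest adjusted p. The window of *Rpf2* was added after the matches were seen, because it holds all of the 3 motifs searched. Each is printed 5′ to 3′ on the strand of the gene, with every match in capitals.
*Mdn1*, chr4:32656869-32657168, plus strand: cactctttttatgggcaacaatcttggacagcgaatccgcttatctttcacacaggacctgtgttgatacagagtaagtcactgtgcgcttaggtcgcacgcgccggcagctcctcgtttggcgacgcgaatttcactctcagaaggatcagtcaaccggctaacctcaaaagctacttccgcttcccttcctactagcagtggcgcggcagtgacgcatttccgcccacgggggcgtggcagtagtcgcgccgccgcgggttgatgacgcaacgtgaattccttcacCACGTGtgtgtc
*Nop2*, chr6:125131633-125131932, plus strand: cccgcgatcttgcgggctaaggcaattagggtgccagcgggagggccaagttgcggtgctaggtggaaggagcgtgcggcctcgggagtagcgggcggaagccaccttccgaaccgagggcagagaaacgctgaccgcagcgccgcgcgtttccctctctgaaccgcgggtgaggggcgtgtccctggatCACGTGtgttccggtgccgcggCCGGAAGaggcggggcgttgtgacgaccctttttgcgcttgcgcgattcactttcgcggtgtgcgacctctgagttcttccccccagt
*Nle1*, chr11:82908346-82908645, minus strand: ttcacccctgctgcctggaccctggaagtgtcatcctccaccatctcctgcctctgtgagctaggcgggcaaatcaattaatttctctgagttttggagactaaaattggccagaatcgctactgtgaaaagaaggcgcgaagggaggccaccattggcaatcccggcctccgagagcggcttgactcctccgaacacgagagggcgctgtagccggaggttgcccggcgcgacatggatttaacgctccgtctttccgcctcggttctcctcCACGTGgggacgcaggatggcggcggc
*Rpf2*, chr10:40246930-40247229, minus strand: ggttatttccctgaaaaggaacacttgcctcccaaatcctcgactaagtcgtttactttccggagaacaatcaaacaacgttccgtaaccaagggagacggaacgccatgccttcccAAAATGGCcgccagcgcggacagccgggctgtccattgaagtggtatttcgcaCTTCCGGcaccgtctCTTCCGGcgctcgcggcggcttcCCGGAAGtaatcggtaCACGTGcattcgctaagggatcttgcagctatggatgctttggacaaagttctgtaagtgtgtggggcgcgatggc

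The motifs were the E-box CACGTG, a YY1-like core spelled AANATGGC and an ETS-like core spelled CCGGAAG, each searched on both strands, and no matches of different motifs overlapped in the members' windows. In the windows above the E-box begins 38 bases after the start site of *Mdn1*, 60 bases before that of *Nop2*, 23 bases after that of *Nle1* and 26 bases before that of *Rpf2*. *Nop2* also holds an ETS-like core, and *Rpf2* holds 3 of them and the YY1-like core. RefSeq gives *Rpf2* a further start site, whose window holds the same matches. An E-box was found for 8 of the 38 members with a window (21.1%), against 12.2% of the genes tested and 8.09% of all genes with a window. The other members with an E-box were *Pes1*, *Sdad1*, *Pelp1* and *Nmd3*. An ETS-like core was found for 18 members (47.4%), against 22.6% of the genes tested and 9.93% of all genes. The YY1-like core was found for 3 members (7.89%), against 11.0% and 6.96%. Among the 32 members with a window that were called lower with AG636, 7 held an E-box and 16 an ETS-like core, and among the 6 that were not called these numbers were 1 and 2. These are descriptions of letters in a window and say nothing of whether a factor is bound.

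Most of the module was lower with AG636. Of the 47 members 36 were called lower (76.6%; edgeR's quasi-likelihood test, Benjamini-Hochberg adjusted p under 0.05 over all genes tested), where 11.0% of all genes tested were called lower. No member was called higher by edgeR's adjusted p, against 10.3% of all genes tested. DESeq2, limma-voom and an unadjusted edgeR p under 0.05 also called no member higher. All 47 log2 fold changes were below zero, although that of *Nvl* lay so close to it that it changed sign in some alternatives, among them scaling by library size alone (0.08). The median was -0.75 (interquartile range -0.97 to -0.56), against 0.03 over all genes tested (-0.29 to 0.39). The standard error (SE) of the members' log2 fold changes had a median of 0.16 and ranged from 0.11 to 0.28, against a median of 0.20 over all genes tested. The lowest 10% of all genes by log2 fold change held 32 members and the lowest 25% held 41.

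**Figure D1:**
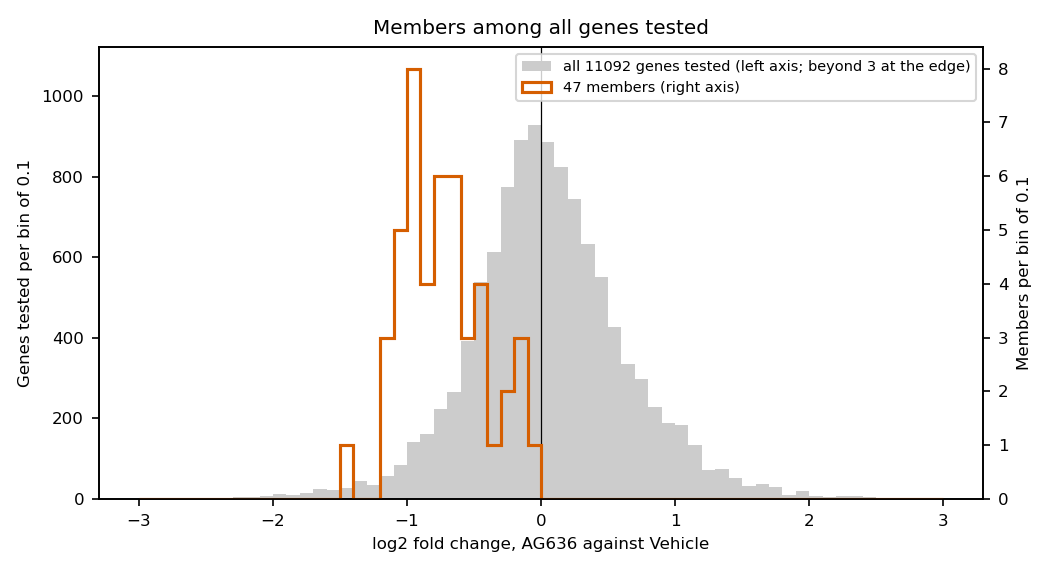
Distribution of the log2 fold change, AG636 against Vehicle, in bins of 0.1 for all 11092 genes tested (grey, left axis, number of genes) and for the 47 members (orange line, right axis, number of members). The members have a median of -0.75 and all lie below zero, *Nvl* at -0.01 being the closest to it and changing sign under library size alone, while the genes tested centre on 0.03.

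In 42 of the 47 members every AG636 sample was below every Vehicle sample (89.4%), which held for 20.6% of all genes tested. Summed over the members, the level was 13650, 12080 and 11480 CPM in Vehicle 1, 2 and 3 and 7283, 8025 and 6260 CPM in AG636 1, 2 and 3. The AG636 mean was thus 58.0% of the Vehicle mean. As a share of all counts the members made up 1.13 to 1.30% of the Vehicle and 0.651 to 0.824% of the AG636 samples. CPM are relative to the other genes in a library, and a change in the total RNA of a cell would not be seen in them.

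Leaving out AG636 3 moved the number of calls more than the other tools, scalings and filters did. Without AG636 3 the test called 20 members and 452 of all genes lower, and 20 of the 36 calls held in each of the 6 fits that left out 1 sample. These 20 were *Bop1*, *Wdr12*, *Nop2*, *Nop16*, *Rrp1b*, *Rrp15*, *Ftsj3*, *Noc2l*, *Ppan*, *Nifk*, *Gtpbp4*, *Gnl3*, *Mdn1*, *Mrto4*, *Dkc1*, *Nhp2*, *Nop10*, *Npm1*, *Ncl* and *Nolc1*. With an adjusted p under 0.01, 18 members and 325 of all genes were called lower. Over all genes the main scaling called 1222 lower and 1146 higher, and library size alone called 913 lower and 1483 higher, with 33 members lower.

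Samples within a group kept an order across the members. Relative to the mean of the Vehicle samples, the median log2 level over the 47 members was 0.163, -0.038 and -0.114 in Vehicle 1, 2 and 3 and -0.804, -0.582 and -1.001 in AG636 1, 2 and 3. Vehicle 1 was the highest of its group for 40 members (85.1%), against 35.7% of all genes tested. AG636 3 was the lowest of its group for 41 members (87.2%), against 35.6% of all genes, and AG636 2 was the highest for 30 (63.8%), against 39.1%. The members thus differed in one direction between mice of a group as well. The summed erythroid markers had the same order in both groups, at 4663, 3013 and 1641 CPM in Vehicle 1, 2 and 3 and 2424, 3220 and 1941 CPM in AG636 1, 2 and 3. AG636 2 had a larger erythroid sum than Vehicle 2 and Vehicle 3, and its median member level was below both. The neutrophil sum was 1081, 2175 and 2460 CPM in Vehicle 1, 2 and 3 and 6072, 3209 and 3002 CPM in AG636 1, 2 and 3. It was lowest in Vehicle 1 and in AG636 3 within their groups. Between groups, its AG636 mean was 215% of the Vehicle mean. Most of the sum in every sample was *S100a8* and *S100a9*. The groups of *S100a8* overlapped and it was not called (edgeR adjusted p = 0.0872), while *S100a9* was called higher. How the erythroid and neutrophil sums relate to the level of the members was not tested.

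**Figure D2:**
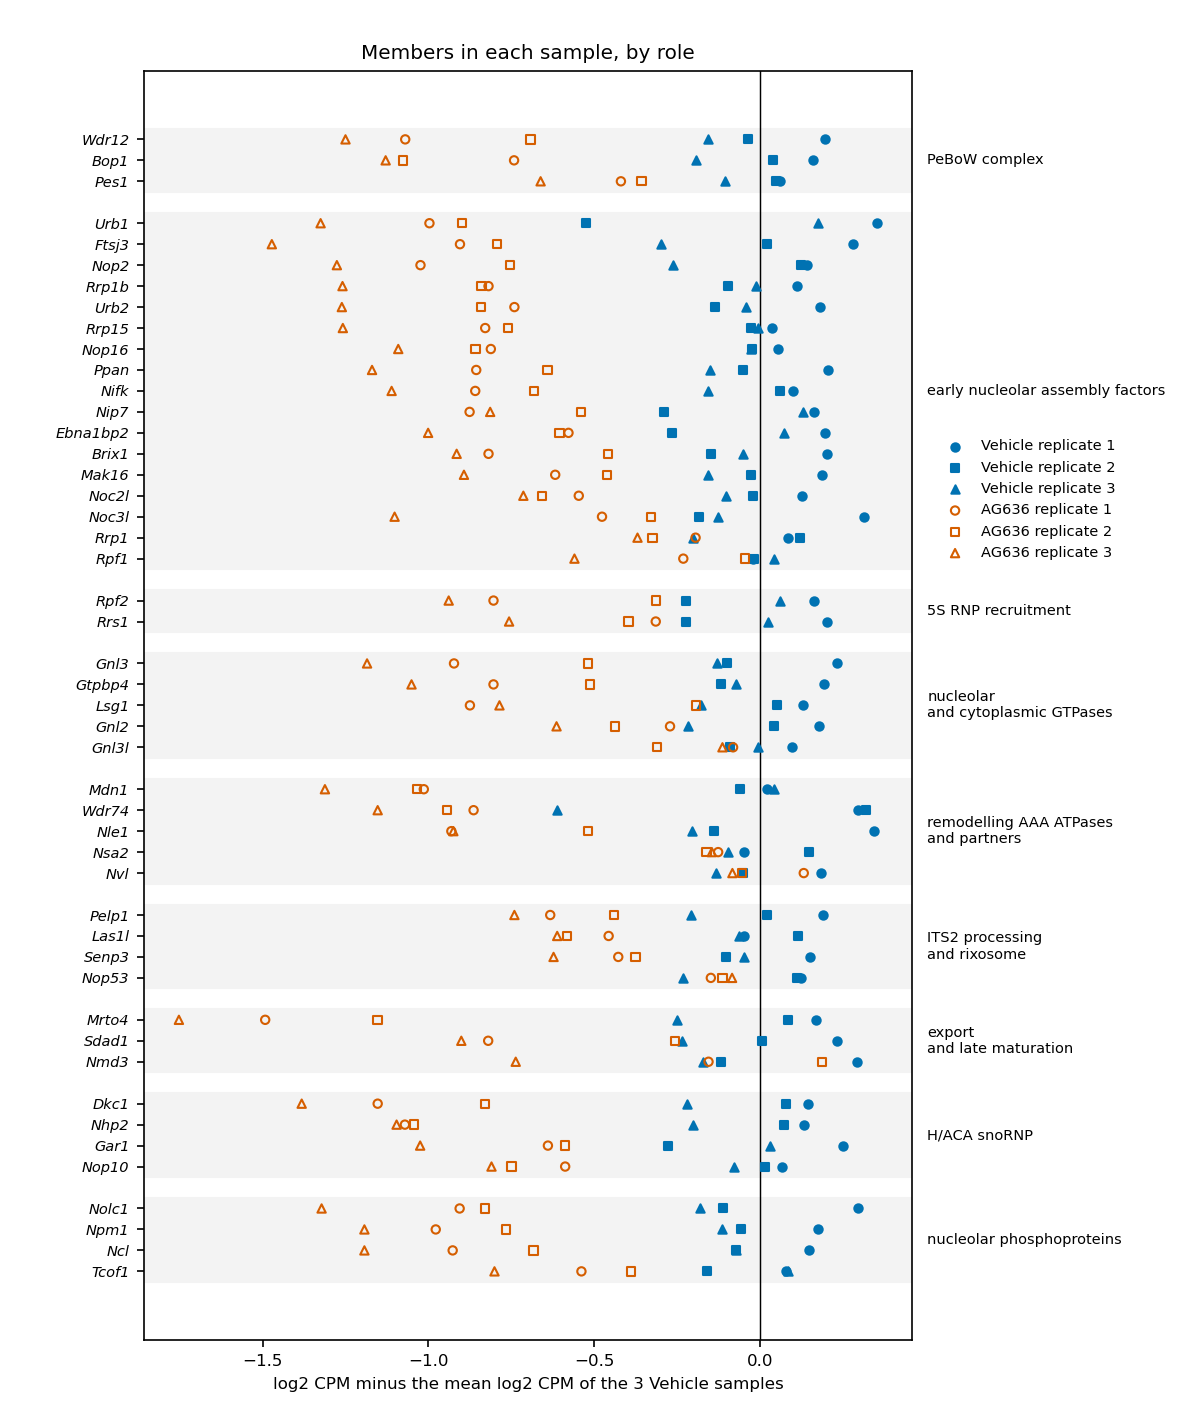
Level of each of the 47 members in each sample, as log2 CPM minus the mean log2 CPM of the 3 Vehicle samples (x axis), ordered by role and within a role by fold change (filled blue, Vehicle; open orange, AG636; circle, square and triangle, replicate 1, 2 and 3). The groups do not overlap for 42 members, AG636 3 is the lowest of its group for 41, and *Rrp1*, *Gnl3l*, *Nvl*, *Nop53* and *Nmd3* overlap.

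The genes for the core proteins of the H/ACA snoRNP fell as a whole, with 4 of 4 called. This particle carries the pseudouridine synthase that modifies rRNA and also binds the telomerase RNA. *Dkc1* encodes that synthase, dyskerin, which is mutated in dyskeratosis congenita (chrX:75095854-75109777). It had 798, 764 and 620.2 CPM in Vehicle 1, 2 and 3 and 325, 407 and 278 CPM in AG636 1, 2 and 3. All AG636 samples were below all Vehicle samples, with a log2 fold change of -1.11 (SE 0.16, edgeR adjusted p = 0.00329). *Nhp2*, a core protein of the particle (chr11:51619735-51623714), had 204, 196 and 162 CPM in Vehicle 1, 2 and 3 and 88.6, 90.3 and 87.0 CPM in AG636 1, 2 and 3. The AG636 samples of *Nhp2* lay within a narrow range, and the mean went from 187 ± 22.5 (SD, n = 3) to 88.6 ± 1.65 CPM (SD, n = 3), with a log2 fold change of -1.08 (SE 0.13, edgeR adjusted p = 0.00222). *Gar1*, which joins the particle late in its maturation (chr3:129824912-129831396), had 197, 136 and 169 CPM in Vehicle 1, 2 and 3 and 106, 110.1 and 81.4 CPM in AG636 1, 2 and 3. Its groups did not overlap, with a log2 fold change of -0.75 (SE 0.17, edgeR adjusted p = 0.0142). *Nop10*, the small protein that bridges dyskerin and Nhp2, was called lower (log2 fold change -0.71, SE 0.11, edgeR adjusted p = 0.00408). Summed over the 4 genes the AG636 mean was 53.4% of the Vehicle mean. Of the 7 factors that assemble or locate H/ACA particles 4 were called lower, namely *Ruvbl1* (-0.98), *Naf1* (-0.87), *Ruvbl2* (-0.84) and *Shq1* (-0.69), and *Nufip1*, *Pih1d1* and *Wrap53* were not called.

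The abundant nucleolar phosphoproteins changed to a like degree, with 4 of 4 called and a sum at 52.7% of the Vehicle mean. *Npm1* encodes nucleophosmin, a histone and ribosome chaperone whose gene is often mutated in human AML (chr11:33152287-33163206). It had 2544, 2167 and 2086 CPM in Vehicle 1, 2 and 3 and 1146, 1328 and 987 CPM in AG636 1, 2 and 3. The lowest Vehicle sample was well above the highest AG636 sample, and the mean went from 2266 ± 245 (SD, n = 3) to 1153 ± 170.3 CPM (SD, n = 3), with a log2 fold change of -0.97 (SE 0.13, edgeR adjusted p = 0.00298). *Ncl*, nucleolin, which binds precursor rRNA (chr1:86344719-86359400), had 2874, 2471 and 2466 CPM in Vehicle 1, 2 and 3 and 1366, 1617 and 1136 CPM in AG636 1, 2 and 3. The groups were again apart, with a log2 fold change of -0.92 (SE 0.14, edgeR adjusted p = 0.00398). *Tcof1* encodes treacle, which promotes transcription by RNA polymerase I and is mutated in Treacher Collins syndrome. It had 349.6, 297 and 352 CPM in Vehicle 1, 2 and 3 and 228, 253 and 190.5 CPM in AG636 1, 2 and 3. Its change was the smallest of these 4 genes, with a log2 fold change of -0.57 (SE 0.14, edgeR adjusted p = 0.0177). *Nolc1*, the snoRNP chaperone Nopp140, had a log2 fold change of -1.02 (SE 0.17, edgeR adjusted p = 0.00529).

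**Figure D3:**
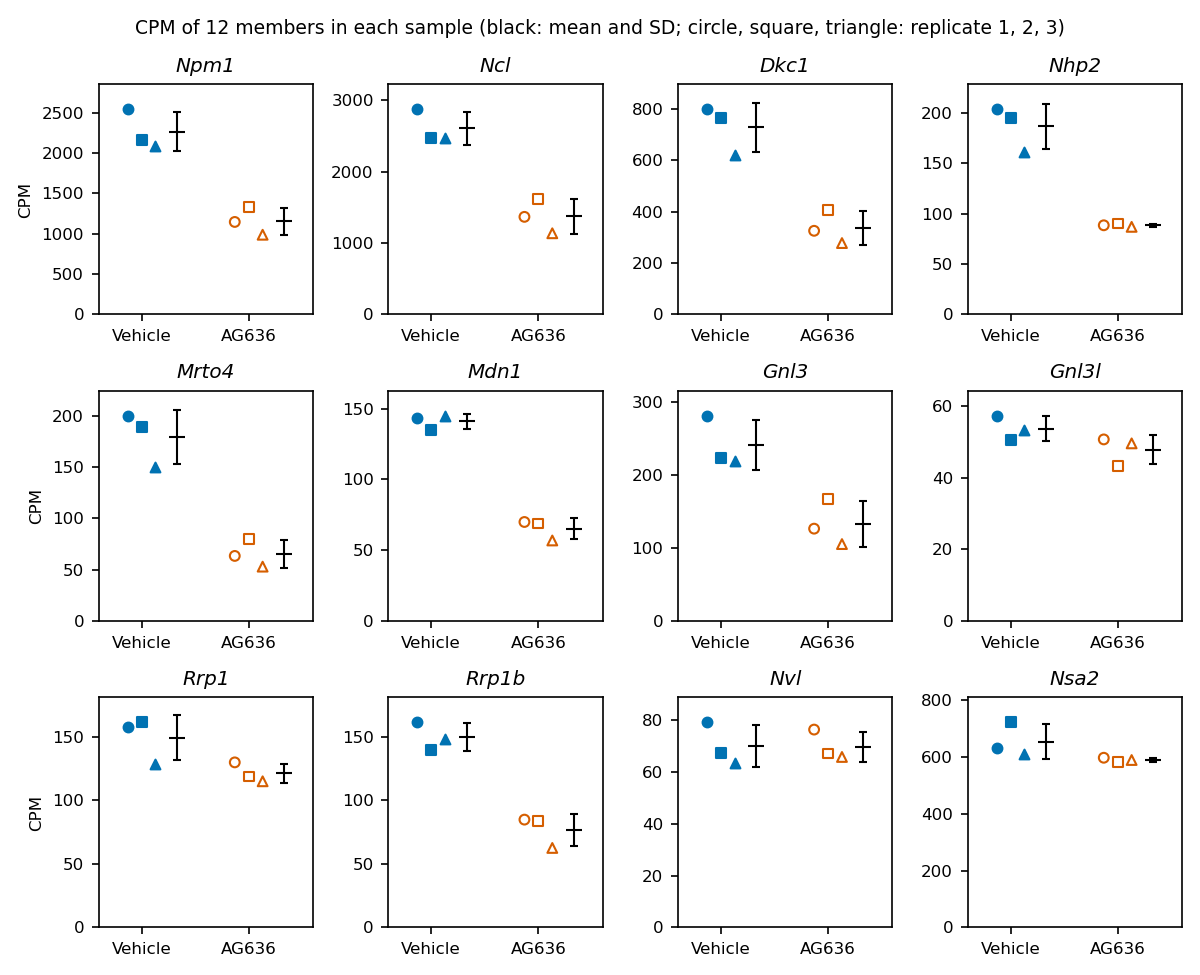
CPM (y axis, from 0) of 12 members in the 3 Vehicle (filled blue) and 3 AG636 (open orange) samples, with the mean and SD in black. *Npm1*, *Ncl*, *Dkc1*, *Nhp2*, *Mrto4*, *Mdn1*, *Gnl3*, *Rrp1b* and *Nsa2* have no overlap between groups, and *Gnl3l*, *Rrp1* and *Nvl* have.

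The PeBoW complex, which is required to mature the precursors of 28S and 5.8S rRNA, consists of the products of *Pes1*, *Bop1* and *Wdr12*. All 3 were called lower, and their summed level in AG636 was 56.5% of that in Vehicle. *Bop1*, the scaffold of the complex (chr15:76452989-76477277), had 90.8, 83.5 and 71.0 CPM in Vehicle 1, 2 and 3 and 48.6, 38.6 and 37.2 CPM in AG636 1, 2 and 3. No AG636 sample reached the lowest Vehicle sample, with a log2 fold change of -0.98 (SE 0.16, edgeR adjusted p = 0.00475). *Wdr12*, the subunit that the AAA ATPase Mdn1 later removes (chr1:60069785-60098645), had 213, 181 and 167 CPM in Vehicle 1, 2 and 3 and 88.6, 115 and 78.2 CPM in AG636 1, 2 and 3. Its groups were apart as well, with a log2 fold change of -0.99 (SE 0.16, edgeR adjusted p = 0.00521). *Pes1* (chr11:3963975-3980004) had 110.2, 109 and 98.2 CPM in Vehicle 1, 2 and 3 and 79.0, 82.5 and 66.8 CPM in AG636 1, 2 and 3. The samples of *Pes1* did not overlap either, but its log2 fold change of -0.48 (SE 0.13, edgeR adjusted p = 0.029) was smaller in size, at 71.8% of the Vehicle level against 50.7% for *Bop1* and 50.2% for *Wdr12*. The difference between subunits was not tested.

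Early nucleolar assembly factors formed the largest group, with 14 of 17 called lower and a median log2 fold change of -0.88. *Nop16*, a component of early pre-60S particles (chr13:54584185-54590090), had the lowest adjusted p of the group and 176, 166 and 166 CPM in Vehicle 1, 2 and 3 and 96.4, 93.4 and 79.5 CPM in AG636 1, 2 and 3. The Vehicle samples were close to each other and all AG636 samples lay far below, with a log2 fold change of -0.92 (SE 0.12, edgeR adjusted p = 0.00298). *Ftsj3*, an rRNA methyltransferase (chr11:106249142-106256079), had 297, 248 and 199 CPM in Vehicle 1, 2 and 3 and 131, 142 and 88.3 CPM in AG636 1, 2 and 3. The spread within each group was wider here, yet the groups did not overlap, with a log2 fold change of -1.05 (SE 0.20, edgeR adjusted p = 0.0078). The other called factors ranged from -1.10 for *Urb1*, a component of the earliest particles, to -0.64 for *Noc2l*, a nucleolar protein that works with Noc3l. Between them were -1.02 for *Nop2*, an rRNA cytosine methyltransferase known as a proliferation antigen, -0.93 for *Rrp15*, -0.94 for *Urb2*, -0.88 for *Ppan*, -0.88 for *Nifk*, which binds Ki-67, -0.75 for *Nip7*, -0.73 for *Ebna1bp2*, -0.72 for *Brix1* and -0.65 for *Mak16*. *Rpf1* (chr3:146505956-146521429) was the member of this group with the highest adjusted p and had 47.4, 47.5 and 49.5 CPM in Vehicle 1, 2 and 3 and 41.0, 46.6 and 32.7 CPM in AG636 1, 2 and 3. Here AG636 2 came within 1 CPM of the lowest Vehicle sample, and the log2 fold change of -0.26 (SE 0.16, edgeR adjusted p = 0.261) did not pass. *Noc3l* did not pass either (log2 fold change -0.62, SE 0.24, edgeR adjusted p = 0.0888), with 698 counts in all.

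The paralogs *Rrp1* and *Rrp1b*, nucleolar proteins of the same family, gave different values. *Rrp1b* (chr17:32036100-32062865) had 161, 139.8 and 148 CPM in Vehicle 1, 2 and 3 and 84.8, 83.5 and 62.5 CPM in AG636 1, 2 and 3. It fell in every AG636 sample below every Vehicle sample, with a log2 fold change of -0.96 (SE 0.15, edgeR adjusted p = 0.00408). *Rrp1* (chr10:78400384-78413043) had 158, 162 and 129 CPM in Vehicle 1, 2 and 3 and 130.0, 119 and 115 CPM in AG636 1, 2 and 3. AG636 1 was above Vehicle 3, and the log2 fold change of -0.30 (SE 0.13, edgeR adjusted p = 0.116) did not pass. The log2 ratio of *Rrp1* to *Rrp1b* was -0.03, 0.21 and -0.20 in the Vehicle samples and 0.62, 0.51 and 0.88 in the AG636 samples, so all AG636 samples were above all Vehicle samples. The ratio differed by 0.68 (standard error 0.16) with an exact two-sided permutation p = 0.1, which is the smallest that 3 against 3 samples can give. Adjusted over the ratios of both paralog pairs (Benjamini-Hochberg), this p is also 0.1.

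Of the GTPases that act along the pathway 3 of 5 were called lower. *Gtpbp4* encodes the nucleolar GTPase known as Nog1 (chr13:8966331-8996083) and had 223, 180.0 and 185 CPM in Vehicle 1, 2 and 3 and 112, 137 and 94.2 CPM in AG636 1, 2 and 3. The groups were apart, with a log2 fold change of -0.78 (SE 0.16, edgeR adjusted p = 0.0103). *Gnl3* encodes nucleostemin, a nucleolar GTPase of stem and progenitor cells (chr14:31012433-31019152), and had 281, 223 and 218 CPM in Vehicle 1, 2 and 3 and 126, 167 and 105 CPM in AG636 1, 2 and 3. Its groups did not overlap, with a log2 fold change of -0.86 (SE 0.18, edgeR adjusted p = 0.0115). *Gnl3l*, its paralog on the X chromosome (chrX:150983141-151017322), had 57.4, 50.5 and 53.5 CPM in Vehicle 1, 2 and 3 and 50.8, 43.3 and 49.6 CPM in AG636 1, 2 and 3. These samples overlapped, and the log2 fold change of -0.17 (SE 0.14, edgeR adjusted p = 0.41) did not pass. The log2 ratio of *Gnl3* to *Gnl3l* was 2.29, 2.14 and 2.03 in the Vehicle and 1.31, 1.95 and 1.08 in the AG636 samples, a difference of -0.71 (standard error 0.27, exact two-sided permutation p = 0.1, the smallest possible, and 0.1 adjusted over both paralog pairs). AG636 2 was close to the Vehicle samples in this ratio. An exon of *Gnl3* overlaps *Pbrm1* on the opposite strand, which had 12635 counts against 6285 for *Gnl3* and a log2 fold change of 0.13 (SE 0.13, edgeR adjusted p = 0.5). *Lsg1*, the cytoplasmic GTPase that releases the export adaptor, passed narrowly (log2 fold change -0.59, SE 0.19, edgeR adjusted p = 0.0494), and *Gnl2* did not (log2 fold change -0.44, SE 0.14, edgeR adjusted p = 0.0524).

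In the group of AAA ATPases that remodel the particle, and their partners, 3 of 5 were called lower. *Mdn1* encodes a very large ATPase that pulls assembly factors off the pre-60S particle (chr4:32657119-32775217), and it had the lowest adjusted p of all members. It had 143, 135 and 145 CPM in Vehicle 1, 2 and 3 and 69.9, 68.9 and 56.8 CPM in AG636 1, 2 and 3. Every AG636 sample was far below every Vehicle sample, the mean went from 141 ± 5.19 (SD, n = 3) to 65.2 ± 7.27 CPM (SD, n = 3), and *Mdn1* had a log2 fold change of -1.11 (SE 0.13, edgeR adjusted p = 0.00203). *Nle1*, the partner through which Mdn1 grips the particle, had a log2 fold change of -0.80 (SE 0.19, edgeR adjusted p = 0.018). *Nvl*, the other AAA ATPase of the list (chr1:181087138-181144204), had 79.3, 67.4 and 63.7 CPM in Vehicle 1, 2 and 3 and 76.5, 67.2 and 65.9 CPM in AG636 1, 2 and 3. The groups of *Nvl* overlapped throughout, and its log2 fold change was -0.01 (SE 0.14, edgeR adjusted p = 0.978). Its sign changed in 4 alternatives. *Wdr74*, which Nvl releases from the particle, was called lower (log2 fold change -1.05, SE 0.28, edgeR adjusted p = 0.0271) with 397 counts in all, the fewest of any member. *Nsa2* (chr13:97129424-97137937) had 630.3, 723 and 609.7 CPM in Vehicle 1, 2 and 3 and 598, 583 and 589.5 CPM in AG636 1, 2 and 3. Its AG636 samples were all just below the lowest Vehicle sample, and the log2 fold change of -0.15 (SE 0.11, edgeR adjusted p = 0.337) did not pass. The sum of this group was 81.4% of the Vehicle mean, and *Nsa2* held most of that sum.

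Among the genes for cleavage of the ITS2 spacer and for the rixosome, 2 of 4 were called lower. *Las1l* encodes the endonuclease that cuts ITS2 (chrX:95935335-95956962) and had 81.7, 91.6 and 80.9 CPM in Vehicle 1, 2 and 3 and 61.6, 56.5 and 55.3 CPM in AG636 1, 2 and 3. All AG636 samples were below all Vehicle samples, with a log2 fold change of -0.55 (SE 0.13, edgeR adjusted p = 0.0155). *Nop53*, which brings the exosome to the cut end (chr7:15936183-15946074), had 281, 279 and 219.6 CPM in Vehicle 1, 2 and 3 and 233, 239 and 243 CPM in AG636 1, 2 and 3. The AG636 samples lay inside the range of the Vehicle samples, and the log2 fold change of -0.13 (SE 0.12, edgeR adjusted p = 0.496) did not pass. *Pelp1*, the scaffold of the rixosome, was called lower (log2 fold change -0.61, SE 0.16, edgeR adjusted p = 0.0233). *Senp3*, its SUMO protease, was not (log2 fold change -0.47, SE 0.19, edgeR adjusted p = 0.105), with 483 counts in all.

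For recruitment of the 5S RNP, the complex of 5S rRNA with its ribosomal proteins, *Rpf2* and *Rrs1* encode a dimer. *Rpf2* (chr10:40223246-40247036) had 99.7, 76.3 and 92.8 CPM in Vehicle 1, 2 and 3 and 51.0, 71.5 and 46.4 CPM in AG636 1, 2 and 3. AG636 2 was only a little below Vehicle 2, and the log2 fold change of -0.67 (SE 0.18, edgeR adjusted p = 0.0291) passed. *Rrs1* (chr1:9545408-9547455) had 182, 136 and 161 CPM in Vehicle 1, 2 and 3 and 127, 120.2 and 93.6 CPM in AG636 1, 2 and 3. Its groups did not overlap either, but the log2 fold change of -0.49 (SE 0.16, edgeR adjusted p = 0.0502) just missed the threshold.

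Export and late maturation held both the largest fall of the module and a member without a call. *Mrto4* encodes a nucleolar protein that holds the place of the ribosomal stalk until late maturation (chr4:139347435-139352576). It had 199.9, 189 and 149.6 CPM in Vehicle 1, 2 and 3 and 63.3, 80.0 and 52.9 CPM in AG636 1, 2 and 3. The AG636 mean was 36.4% of the Vehicle mean, from 179 ± 26.4 (SD, n = 3) to 65.4 ± 13.7 CPM (SD, n = 3), with a log2 fold change of -1.46 (SE 0.17, edgeR adjusted p = 0.00234). *Nmd3*, the adaptor that links the particle to the export receptor (chr3:69721985-69756373), had 65.4, 49.3 and 47.4 CPM in Vehicle 1, 2 and 3 and 48.0, 60.8 and 32.1 CPM in AG636 1, 2 and 3. AG636 2 was above Vehicle 2 and Vehicle 3 while AG636 3 was the lowest of all, and the log2 fold change of -0.20 (SE 0.23, edgeR adjusted p = 0.546) did not pass. Without AG636 3 the log2 fold change of *Nmd3* was 0.01. *Sdad1*, a further nucleolar factor, was called lower (log2 fold change -0.64, SE 0.19, edgeR adjusted p = 0.0376).

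**Figure D4:**
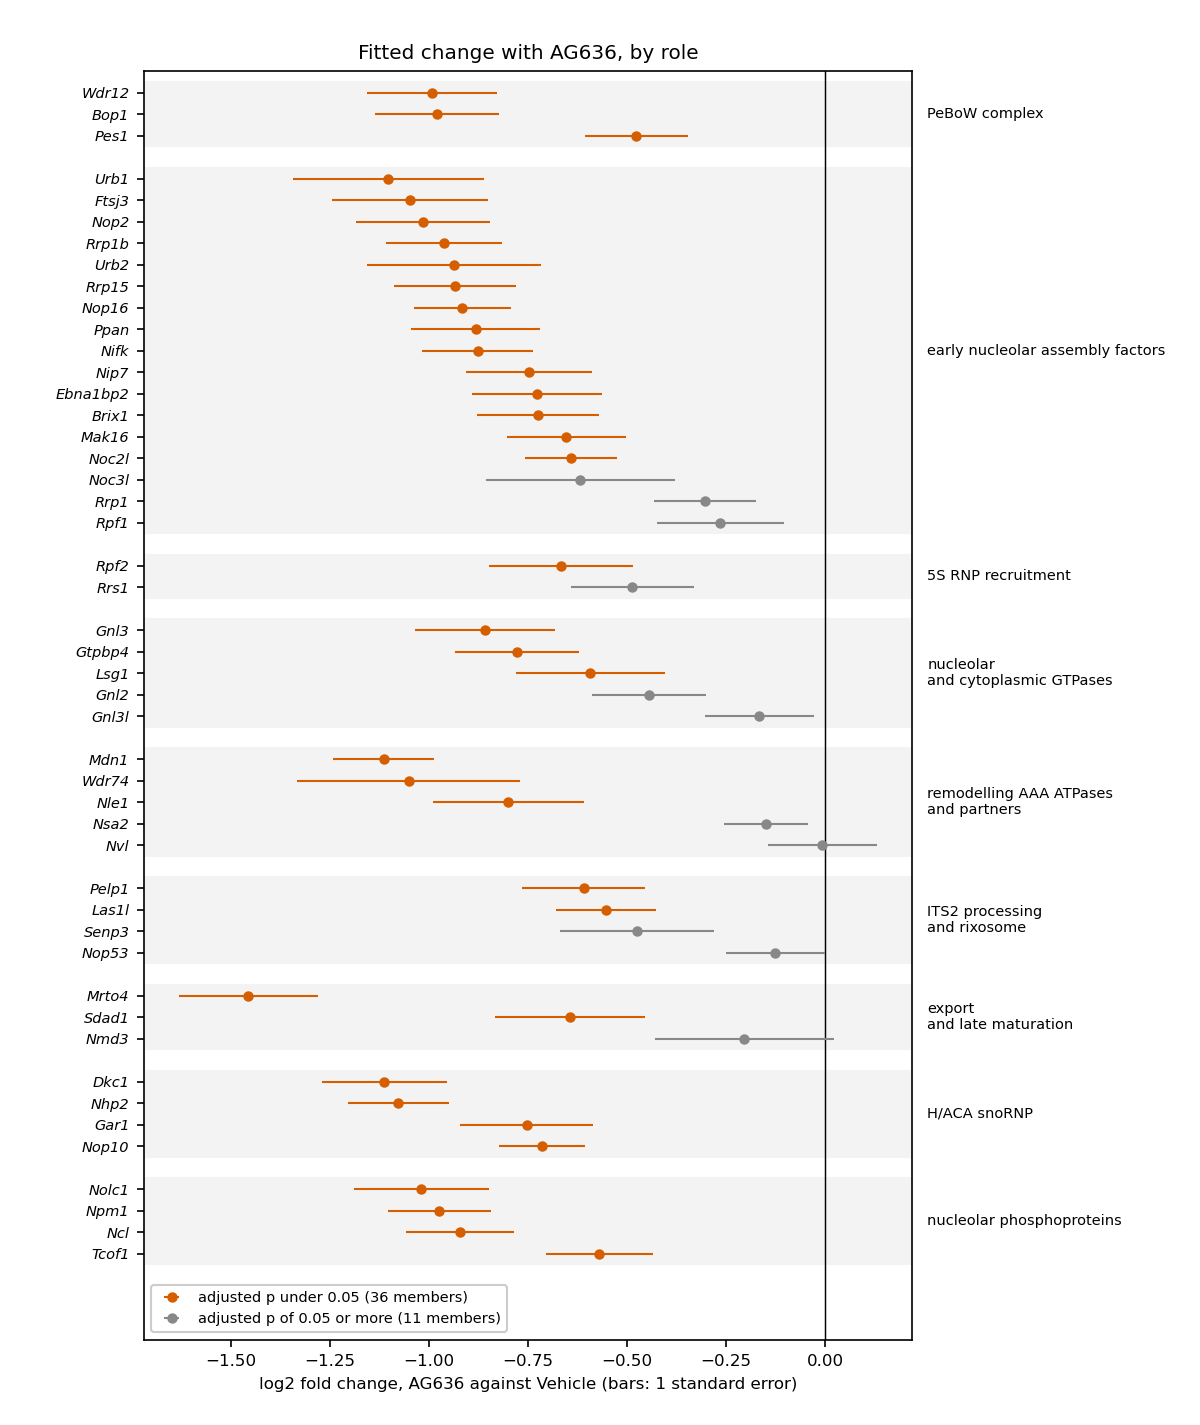
Log2 fold change of each of the 47 members, AG636 against Vehicle, with 1 standard error, ordered by role (orange, adjusted p under 0.05, 36 members; grey, 11 members not called). Values run from -1.46 for *Mrto4* to -0.01 for *Nvl*, whose sign changes under library size alone, and the H/ACA, PeBoW and phosphoprotein groups hold called members throughout.

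The 11 members not called were *Rrp1*, *Rpf1*, *Noc3l*, *Rrs1*, *Gnl2*, *Gnl3l*, *Nvl*, *Nsa2*, *Senp3*, *Nop53* and *Nmd3*. A p that misses the threshold does not show that these genes kept their level, and *Rrs1* and *Gnl2* were close to it.

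Other genes of the pathway and of the nucleolus were taken from further hand-written lists. Of 32 other pre-60S factors tested 17 were called lower (53.1%), and 31 were below zero with a median of -0.56. *Pa2g4*, a growth-regulated factor that binds ribosomes, had a log2 fold change of -1.08 (SE 0.14, edgeR adjusted p = 0.00259), and *Mybbp1a*, a nucleolar Myb-binding protein, had a log2 fold change of -1.04 (SE 0.15, edgeR adjusted p = 0.004). The rixosome subunit *Wdr18* was called lower (-0.74), and *Tex10* (-0.42) and *Nol9* (-0.37), the kinase partner of *Las1l*, were not. *Eif6*, the factor that keeps the subunits apart, was called lower (-0.60), and *Sbds* (-0.01) and *Efl1* (-0.35), which remove it in the cytoplasm, were not. The 4 core proteins of the box C/D snoRNP, which guides rRNA methylation, were all called lower, with a median of -0.90 and *Fbl*, the methyltransferase fibrillarin, at -0.91.

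Of 47 factors of the small subunit processome 35 were called lower (74.5%), with a median of -0.73, close in number to the module itself. Of the 77 cytosolic ribosomal protein genes 25 were called lower (32.5%, against 11.0% of all genes tested), and 73 were below zero. In 61 of them (79.2%) every AG636 sample was below every Vehicle sample, against 20.6% of all genes tested. Their median was -0.31 and their summed level in AG636 was 82.7% of Vehicle, against 58.0% for the members. Among 15 cell cycle genes *Mcm3*, *Mcm5* and *Mcm7* were called lower, with a median of -0.17 over the list and a summed level at 88.0% of Vehicle. *Mki67* (-0.15) and *Top2a* (-0.17), markers of dividing cells, were not called. The differences between lists were not tested.

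**Figure D5:**
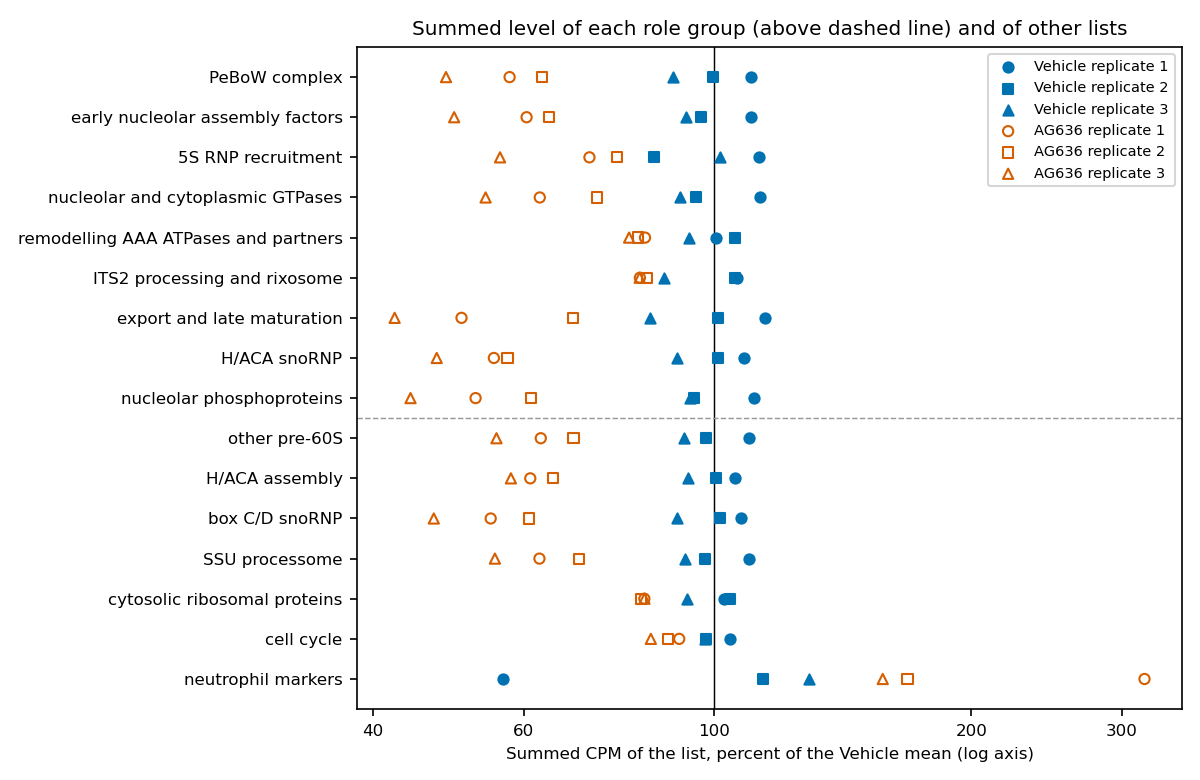
Summed CPM of each role group (above the dashed line) and of the other lists in each sample, as percent of the mean of the 3 Vehicle samples (log axis; filled blue, Vehicle; open orange, AG636). AG636 samples are below all Vehicle samples for all 9 role groups, the other pre-60S, snoRNP, processome, ribosomal protein and cell cycle lists, and above them for the neutrophil markers.

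Reads of overlapping genes cannot be told apart where the counting ignored strand, and the strand setting was not given in the sources used here. Besides *Gnl3*, exons of *Dkc1* overlap *Mpp1* (2726 counts against 18261), those of *Nhp2* overlap *Rmnd5b* (1110 against 4728) and those of *Mak16* overlap *Tti2* (527 against 3330). Exons of *Nsa2* overlap *Gfm2* (881 against 20744) and those of *Wdr12* overlap *Carf* (285 against 4765). The other overlapping genes had at most 11 counts. Fold changes of *Tti2*, *Gfm2* and *Carf* are not reported here. *Mpp1* had a log2 fold change of 0.55 and *Rmnd5b* of 0.25, in the direction opposite to the member, and neither was called. Processed pseudogenes that share the end of a member's transcript had at most 3 counts for *Npm1*, against 57881 for *Npm1* itself, and at most 2 for *Mrto4*, against 4245.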

How the data were processed

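The authors deposited raw counts, the number of reads per gene, for 3 Vehicle and 3 AG636 samples, and 0 sample columns were left out. Per the labels, libraries were made with a QuantSeq kit, which reads the 3′ end of transcripts, so that a longer gene does not collect more counts. The submitters' processing notes name FastQC, cutadapt 1.9.1, HISAT2 2.0.4 and featureCounts of Subread 1.5.0-p3, with the build mm10 (GRCm38). The annotation release, the strand setting and the treatment of multimapping reads were not given in the sources used here. The table's gene length was not used. Groups were taken from the sample titles. Nothing in the labels says which recipients were littermates. The p-values measure the spread between these samples and cannot stand for the spread between separately made I1DN leukemias.

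GENCODE gave symbols to 54723 of the 54838 identifiers. The analysis used edgeR 4.0.16 in R 4.3.3. After filterByExpr (minimum count 10, minimum total 15) and TMM scaling, AG636 was compared with Vehicle in the quasi-likelihood test, with Benjamini-Hochberg adjustment over all 11092 genes and a threshold of 0.05. The standard error is the size of the log2 fold change divided by the square root of F. Within groups the chi-square per degree of freedom between samples was 6.22 to 14.6, so no sample was counted as a repeat of another. Paralog ratios were compared with an exact permutation test. The test was also checked on simulated counts. Sequence similarity of transcript ends (the last 500 bases, at least 98% identity over at least 75 bases) was searched with BLAST 2.17.0.

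The members and all lists were chosen with earlier results of these data known. Values per sample are given, in each role group, for the members with the lowest adjusted p, the highest adjusted p and the highest mean Vehicle CPM, and for 2 paralog pairs. Non-member genes named from the lists, overlapping genes and marker genes were chosen after their values were seen, and some marker genes are not reported here by name. Alternatives were DESeq2 1.42.0, limma-voom (limma 3.58.1), median-of-ratios size factors, plain library sizes, TMM factors computed without members and cytosolic ribosomal protein genes, a filter of 10 counts per sample or none, a replicate block, a stricter threshold (0.01), a minimum fold change of 1.5 and leaving out each sample.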

Additional observations from a re-analysis of the deposited data

How the results depend on the processing

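The count of 36 members called lower was between 33 and 39 under DESeq2, limma-voom, the other scalings, the other filters, the replicate block and a fold change of at least 1.5, and no alternative called a member higher. An adjusted p under 0.01 left 18 members, and 325 genes lower and 231 higher over all genes. Leaving out 1 sample gave 20 (without AG636 3) to 38 members, 452 to 1298 genes lower and 399 to 1074 genes higher, with fewer samples in each fit. The members' median log2 fold change stayed between -0.88 and -0.64. In the leave-one-out sets 42 to 44 members did not overlap. Groups separate more easily with fewer samples, and the share over all genes was not computed for these sets. *Nvl* changed sign under library size alone (0.083) and without Vehicle 1 (0.073), AG636 2 (0.019) and AG636 3 (0.035), with -0.092 to 0.073 over the leave-one-out fits, and *Nmd3* without AG636 3, with -0.437 to 0.011, and the cause was not tested. The paralog ratios kept their sign, from -0.96 to -0.53 for *Gnl3* and from 0.57 to 0.78 for *Rrp1*. Nothing in the labels says whether same-numbered samples were paired. Their deviations from the group means had correlations of -0.06, -0.18 and 0.22, and Vehicle 1 was closest to AG636 2 (0.36). Such correlations cannot show whether mice were paired, because deviations within a group of 3 are not independent. The fit with the replicate block called 36 members (1 gained and 1 lost) and 1046 genes lower and 914 higher. With 3 samples a group no exact permutation test of a single value can reach 0.05, and for the 5 members with under 1000 counts depth limits the precision.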

Other observations

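The promoter windows of the other lists were searched for the same letters. An E-box was found for 29.7% of the 37 small subunit processome genes with a window, for 13.8% of the 29 other pre-60S factors and for 10.5% of the 57 cytosolic ribosomal protein genes, against 21.1% of the members and 12.2% of the genes tested. The YY1-like core was found for 16.2%, 10.3% and 19.3% of these lists, against 7.89% of the members and 11.0% of the genes tested. The ETS-like core was found for 45.9%, 44.8% and 40.4%, against 47.4% of the members. The median log2 fold change was -0.73 for the processome genes, -0.56 for the other pre-60S factors and -0.31 for the ribosomal protein genes. For the members it was -0.75. These shares and medians are descriptions, and a relation between them was not tested.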
